A study of Mus musculus with 6 samples.

Results

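The genes examined were 52 mouse genes that build, modify, trim or carry glycosaminoglycans, the long sugar chains of the cell surface and matrix. The genes were taken from a fixed list of symbols, and for each gene the probe set with the highest mean signal on the arrays was used. Of the 52 genes, 48 had a probe set named here, each exactly 1, among the 17331 genes with a symbol on the array. The chondroitin synthase genes Chsy1 and Chsy3, the heparan sulfate 3-O-sulfotransferase gene Hs3st2 and the versican gene Vcan had no probe set named here and were not analysed. Expression had been measured in MC3T3-E1 cells, an established preosteoblast line from mouse calvaria, at passages 5 to 12. The differentiated group was 3 samples kept for 15 days in medium with 10 mM glycerol-2-phosphate and 50 ug/mL ascorbic acid. The undifferentiated group was 3 samples grown in complete medium without these supplements. All 6 samples had also received ethanol, the vehicle of a treatment not analysed here, for 24 hours.

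Glycosaminoglycans are chains of repeated sugar pairs. Hyaluronan is spun out at the plasma membrane without a protein core and is not sulfated. Heparan sulfate and chondroitin or dermatan sulfate are built in the Golgi on serine residues of core proteins, starting from a shared linkage sugar sequence, and keratan sulfate is built on other linkages. Sulfotransferases then place sulfate groups at defined positions, and the pattern decides which growth factors, morphogens and matrix proteins a chain can bind. Syndecans span the membrane and glypicans are tethered to it by a lipid anchor, and both mainly carry heparan sulfate. In bone, proteoglycans bind collagen and mineral and regulate signalling by BMPs, FGFs and Wnts.

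The genes of hyaluronan synthesis and of sulfation held the larger differences. None of the 5 linkage enzyme genes or 4 syndecan genes passed, beside 16.8% of all genes with a symbol. Lists this short cannot show a departure from that share, and the linkage gene Xylt2 was lower without overlap (log2 fold change -0.55). Chst1, the keratan sulfate 6-O-sulfotransferase gene, was 2.81-fold lower in differentiated cells, and the hyaluronan synthase gene Has2 was 2.40-fold lower. Chst3, Chst15 and Ust, which sulfate chondroitin or dermatan sulfate chains, were 1.88-fold, 1.59-fold and 1.39-fold higher. The call of Ust was lost in 10 of 18 alternative settings. Chst7, Chst11, Chst12 and Chst14, which also sulfate these chains, did not pass (log2 fold changes 0.20, -0.11, -0.25 and -0.11). Hs6st2, a heparan sulfate 6-O-sulfotransferase gene, was 1.88-fold lower, and Sulf1, whose product removes 6-O-sulfate from finished chains, was 1.51-fold higher. Their relatives did not pass. Sulf2, the other gene of such a sulfatase, was lower without overlap (log2 fold change -0.29), and Hs6st1 and Hs6st3 had log2 fold changes of -0.14 and -0.08. Among the 48, 8 genes rose and 5 fell, and the other 35 did not pass (limma, Benjamini-Hochberg adjusted p under 0.05 over 41938 entries).

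Among all 17331 genes with a symbol, 8.67% were called higher and 8.16% lower, 16.8% in either direction. A call with a change of at least 2-fold was made for 2 of the 48, Chst1 and Has2, and for 2.65% of all genes with a symbol. The shares among the 48 were 16.7% higher and 10.4% lower. Their median log2 fold change was -0.02, against 0.01 over all genes with a symbol, and the median size of the log2 fold change was 0.20, against 0.16. The groups did not overlap for 11 genes that were higher and 13 that were lower in differentiated cells, 22.9% and 27.1% of the 48. Over all genes with a symbol, 18.2% were higher and 16.6% lower without overlap. The 8 higher calls numbered 5 when differentiated replicate 1 or 2 or undifferentiated replicate 1 or 2 was left out. There were 8 lower calls in place of 5 without undifferentiated replicate 3. With median centring in place of quantile normalization, 5 were called higher and 6 lower. The calls of Extl1, Ndst1, Ust and Gpc6 were each lost when any of 4 or 5 of the 6 arrays was left out. Scaling also ended them: cyclic loess did so for Extl1, Ust and Gpc6, median centring for Extl1, Ndst1 and Ust, and the deposited values for Ndst1 and Ust. The call of Extl1 was further lost with trend and robust eBayes settings, and that of Ust with an offset of 50. The other 9 calls, those of Has1, Has2, Hyal1, Hs3st1, Hs6st2, Sulf1, Chst1, Chst3 and Chst15, held in all 18 alternative settings that were run. The mean of probe sets and the authors' series value table are among the 18 but could not change a fold change here. Each gene had 1 probe set, and that table held the same values. Of the 35 genes that did not pass, 11 passed in at least 1 alternative, 3 of them with array weights only. Xylt2 passed as lower with array weights and with both replicate blocks. Sdc2 passed as higher with array weights, with trend and robust eBayes settings and with the replicate block by file name.

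**Figure D1:**
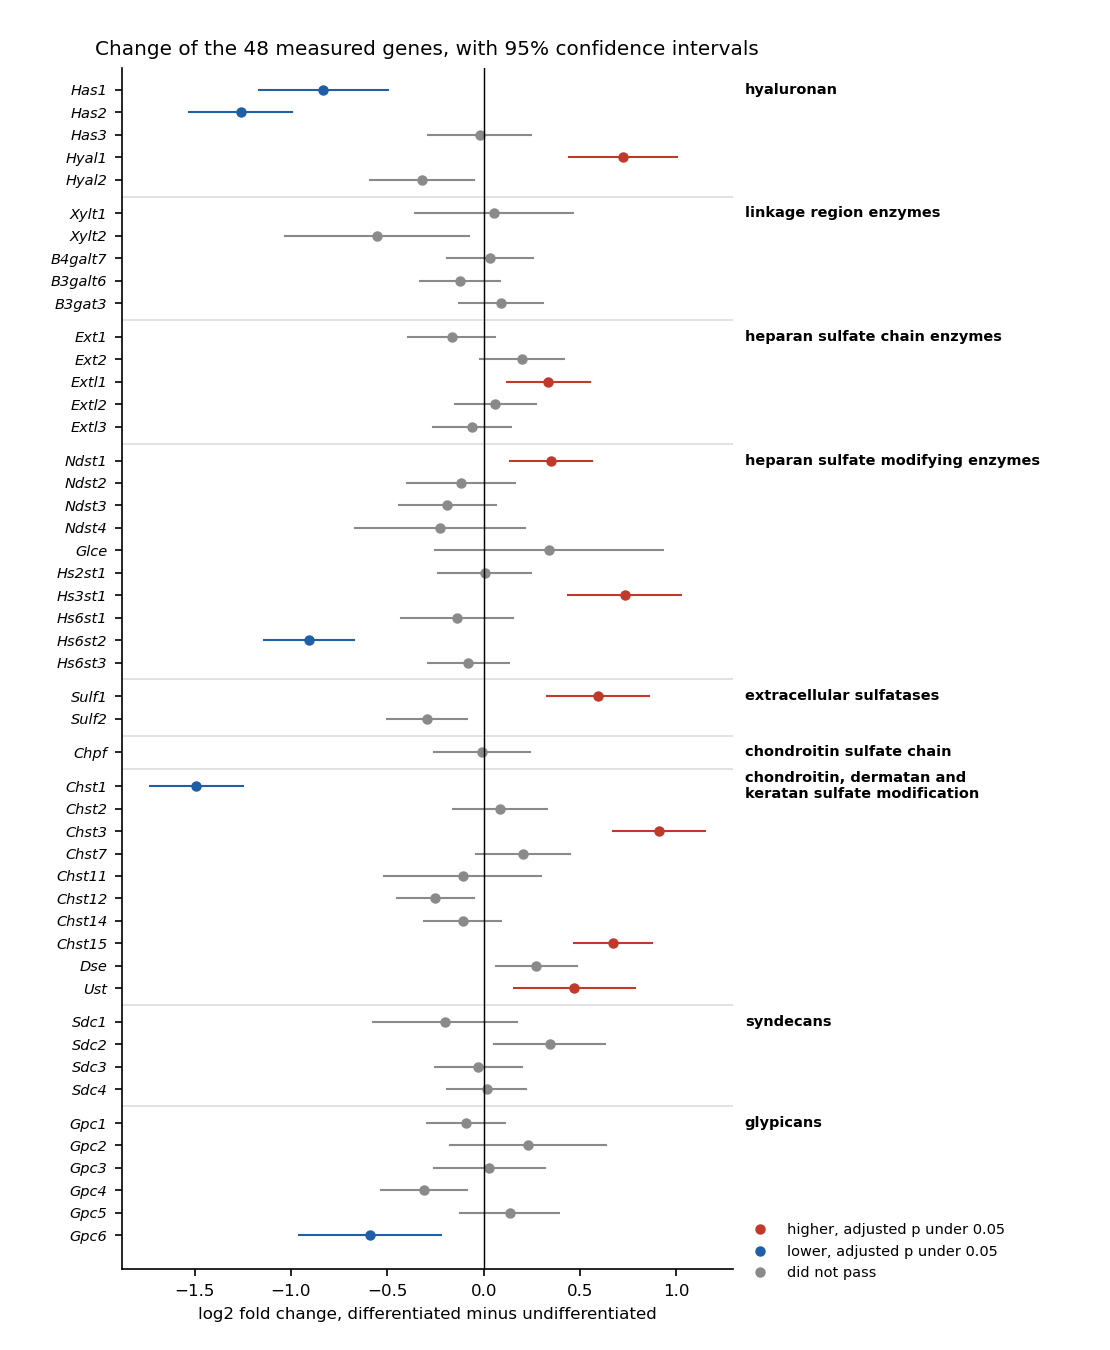
Log2 fold change, differentiated minus undifferentiated, of the 48 measured genes (rows, grouped by role), with 95% confidence intervals from limma (n = 3 arrays per group). Colours give the 8 genes called higher, the 5 called lower and the 35 that did not pass; the values run from -1.49 for Chst1 to 0.91 for Chst3.

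Median deposited intensities were 806 to 845 arbitrary units over the 6 arrays, and the random-sequence control probes read 101 to 114. After quantile normalization those control probes lay between 6.69 and 6.80 on the log2 scale. Undifferentiated replicate 3 stood apart from undifferentiated replicates 1 and 2 on the second principal component, with a root mean square deviation from its group mean of 0.208, against 0.0820 to 0.154 for the other arrays. The batch in the scanner image names held the 3 arrays of 1 group each, so batch and group cannot be told apart in any result here. The same is true of the supplements, the 15 days of culture with them and differentiation. Of 10 osteoblast markers 5 rose, with log2 fold changes from 0.52 for Sp7 to 3.02 for Alpl, the alkaline phosphatase of mineralizing cells. The other 5, Runx2, Ibsp, Spp1, Col1a1 and Col1a2, did not pass (log2 fold changes 0.02, 0.41, -0.10, 0.05 and 0.04). Markers of other cells also differed, and their part in the results was not tested. Among them, 1 of 5 macrophage and osteoclast markers rose (Ctsk, log2 fold change 0.98), and the summed signal of that list was 38370.5 to 39289 in differentiated and 19769 to 20841 in undifferentiated arrays. Ctsk made up nearly all of that sum, which without it was 1117 to 1226 in differentiated and 1095 to 1118 in undifferentiated arrays. Of 6 adipocyte markers Cebpa rose and Adipoq fell, and the summed signal was 8896 to 9623 in differentiated and 5513 to 6195 in undifferentiated arrays. Without Cebpa that sum was 2140.0 to 2318 in differentiated and 1974 to 2517 in undifferentiated arrays. Of 5 endothelial markers 2 rose (Tek, log2 fold change 1.49, and Pecam1, 0.47). The summed signal of that list was 2486 to 2560 in differentiated and 1786 to 1900.0 in undifferentiated arrays. Without Pecam1 that sum was still apart, at 1636 to 1762 in differentiated and 1194 to 1252 in undifferentiated arrays. Of 7 chondrocyte markers 1 rose (summed signal 7681 to 8256 in differentiated and 6719 to 8138 in undifferentiated arrays), as did 1 of 6 muscle markers (summed signal 4374 to 5583 in differentiated and 3718 to 4899.9 in undifferentiated arrays). The endothelial cadherin gene Cdh5 lay at the random-sequence probes on all arrays. In RNA from whole cultures, fewer cells of a type and less RNA per cell cannot be told apart.

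The starts of 4 genes whose calls held in every setting are shown because they differ in direction of change. They were picked with their motifs known, so how motifs and direction pair among them is not a result. Each window runs from 250 bases before to 50 bases after the start given by RefSeq (GRCm38.p6), read 5′ to 3′ on the gene's strand. Capitals mark matches, on either strand, to the RUNX core TGTGGT and the GC box GGGCGG, which cannot overlap each other here. RUNX2, the factor the study was about, binds the first, and Sp family factors bind the second. Chst1 (chr2:92600867-92601166, plus strand) and Has1 (chr17:17855139-17855438, minus strand), both lower in differentiated cells, held neither motif in this window. Chst3 (chr10:60219211-60219510, minus strand) and Hyal1 (chr9:107576700-107576999, plus strand) were both higher.
Chst1: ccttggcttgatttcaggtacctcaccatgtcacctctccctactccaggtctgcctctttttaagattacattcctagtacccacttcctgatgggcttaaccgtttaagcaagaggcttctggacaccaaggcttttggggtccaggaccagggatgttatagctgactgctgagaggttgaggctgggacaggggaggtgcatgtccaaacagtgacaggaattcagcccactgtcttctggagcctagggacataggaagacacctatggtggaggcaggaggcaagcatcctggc
Has1: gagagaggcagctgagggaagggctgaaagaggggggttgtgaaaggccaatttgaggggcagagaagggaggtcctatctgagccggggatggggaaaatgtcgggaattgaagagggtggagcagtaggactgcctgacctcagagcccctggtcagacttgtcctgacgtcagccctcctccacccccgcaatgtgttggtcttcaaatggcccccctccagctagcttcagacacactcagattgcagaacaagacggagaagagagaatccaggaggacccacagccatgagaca
Chst3: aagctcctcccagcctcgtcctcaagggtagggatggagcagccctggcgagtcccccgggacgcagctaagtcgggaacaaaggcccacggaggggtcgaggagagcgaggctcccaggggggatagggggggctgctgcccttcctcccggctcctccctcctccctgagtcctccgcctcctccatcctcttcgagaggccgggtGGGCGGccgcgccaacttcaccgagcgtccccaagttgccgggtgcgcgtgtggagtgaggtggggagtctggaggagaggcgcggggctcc
Hyal1: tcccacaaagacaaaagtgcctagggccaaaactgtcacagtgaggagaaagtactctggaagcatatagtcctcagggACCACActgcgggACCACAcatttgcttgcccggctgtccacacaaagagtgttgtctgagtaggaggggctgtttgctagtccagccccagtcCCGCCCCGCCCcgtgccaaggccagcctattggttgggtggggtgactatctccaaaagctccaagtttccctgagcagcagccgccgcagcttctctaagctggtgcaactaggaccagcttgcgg

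The window of Chst3 held 1 GC box, with its first base at position -42 from the start. Hyal1 held 2 RUNX cores on the opposite strand, printed as ACCACA, with first bases at -171 and -158, and 2 GC boxes, also on the opposite strand, at -77 and -72 that share a base. Of the 48 genes, 37 had a promoter in the RefSeq table, 42 promoters in all. The RUNX core was in 3 of the 42 (those of Gpc2, Hyal1 and Dse), against 16.8% of all 32851 promoters of the same length. The GC box was in 28 of the 42, against 35.7% of all. Among the 11 promoters of the 9 called genes that had one, 1 held the RUNX core and 6 the GC box. Hs6st2, which fell, held a GC box at -2 in 1 of its 2 promoters, and Hs3st1 and Extl1, which rose, held neither motif. A match is a run of letters, and no binding was measured here.

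Of the genes that make hyaluronan, Has1 and Has2 were lower in differentiated cells. Of the hyaluronidase genes in the same group, Hyal1 was higher. Among 5 genes measured, 1 was called higher and 2 lower, beside 8.67% and 8.16% of all genes with a symbol. The median log2 fold change of the 5 was -0.32. Has2, the main hyaluronan synthase gene of mesenchymal tissue, read 9.26, 9.22 and 9.56 log2 intensity in differentiated replicates 1 to 3, against 10.54, 10.57 and 10.72 in undifferentiated replicates 1 to 3. All 3 differentiated values lay far below the lowest undifferentiated one. In the authors' deposited linear units this was 633, 602 and 755 in differentiated cells and 1460, 1488 and 1799.7 in undifferentiated cells. The log2 fold change of Has2 was -1.26 ± 0.12 SE (adjusted p = 0.000233). Has1, a second hyaluronan synthase gene, read 8.70, 9.15 and 8.99 in differentiated cells, against 9.54, 9.85 and 9.94 in undifferentiated cells. Its groups did not overlap, and it was 1.78-fold lower in differentiated cells (log2 fold change -0.83 ± 0.15 SE, adjusted p = 0.00619). Has3, the remaining synthase gene, read 8.73, 8.74 and 8.40 in differentiated cells and 8.60, 8.60 and 8.73 in undifferentiated cells. The groups overlapped and it did not pass (log2 fold change -0.02, 95% confidence interval -0.29 to 0.24).

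Hyal1 encodes the hyaluronidase of lysosomes. It read 10.44, 10.28 and 10.16 in differentiated cells, against 9.68, 9.67 and 9.36 in undifferentiated cells. The lowest differentiated value was above the highest undifferentiated one, and Hyal1 was 1.65-fold higher (log2 fold change 0.72 ± 0.12 SE, adjusted p = 0.00521). Hyal2 encodes a lipid-anchored hyaluronidase that starts the breakdown of long chains at the cell surface. It read 10.36, 10.54 and 10.73 in differentiated cells and 10.73, 10.96 and 10.90 in undifferentiated cells. The groups met at 10.73 to the digits shown, and Hyal2 did not pass (log2 fold change -0.32, 95% confidence interval -0.59 to -0.05, adjusted p = 0.107).

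**Figure D2:**
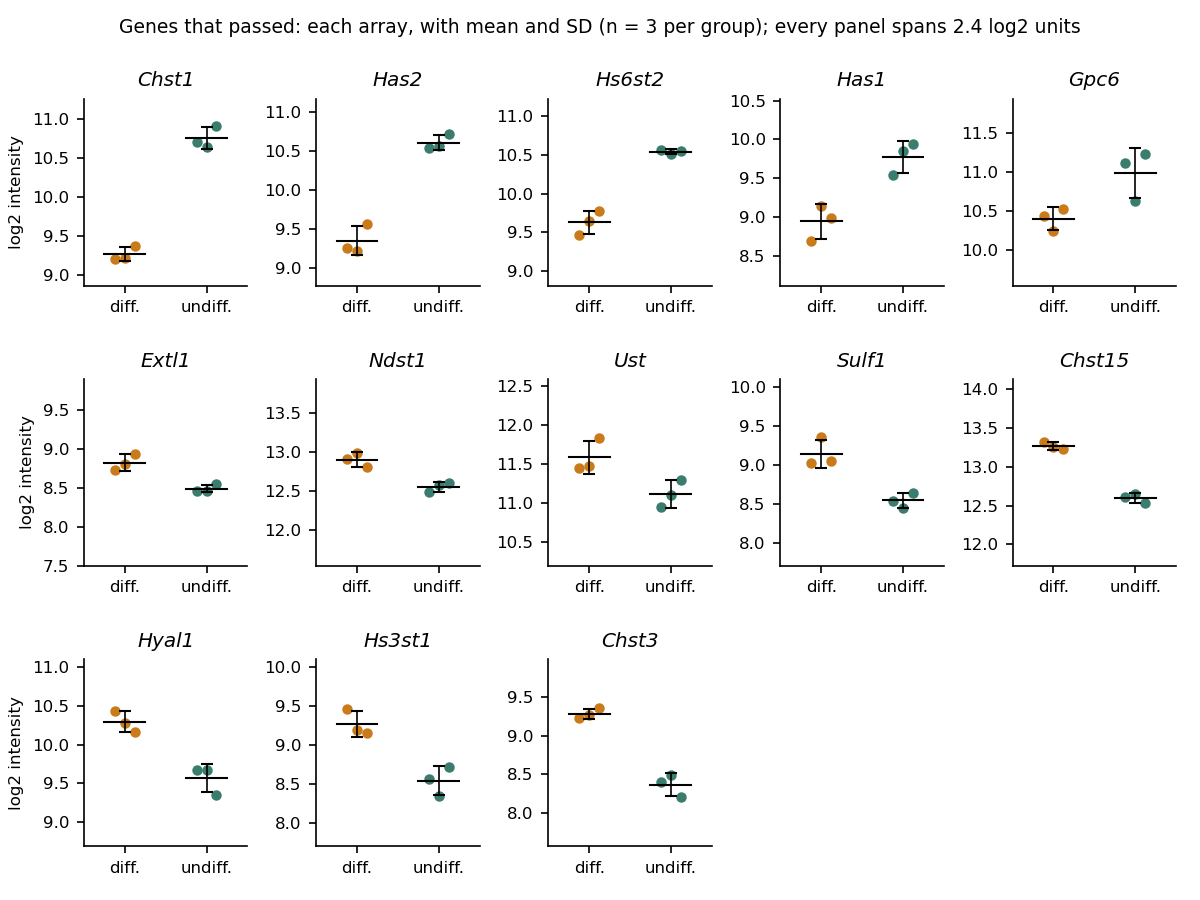
Log2 intensity on each array (points) of the 13 genes that passed, in differentiated (left) and undifferentiated (right) cells, with mean and SD (n = 3 per group). Every panel spans 2.4 log2 units, and in each panel the groups do not overlap, as for Chst1 at 9.20 to 9.37 in differentiated and 10.65 to 10.92 in undifferentiated cells.

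The 5 enzymes that build the linkage sequence shared by heparan and chondroitin sulfate gave 0 calls with limma, and 1 (Xylt2) at an unadjusted p under 0.05. Their median log2 fold change was 0.03. Of all genes with a symbol 16.8% were called in either direction. Xylt1 and Xylt2 encode the xylosyltransferases that attach the first sugar to the core protein. Xylt2 read 8.02, 7.88 and 8.20 in differentiated cells, against 8.24, 8.40 and 9.11 in undifferentiated cells. The groups did not overlap, but undifferentiated replicate 3 lay well above the other arrays of its group and Xylt2 did not pass (log2 fold change -0.55, 95% confidence interval -1.03 to -0.07, adjusted p = 0.112). Xylt1 read 9.70, 9.50 and 9.47 in differentiated cells and 9.74, 9.71 and 9.05 in undifferentiated cells, where replicate 3 was the low array. Its log2 fold change was 0.05 (-0.36 to 0.47). The galactosyltransferase genes B4galt7 and B3galt6, which add the next sugars, had log2 fold changes of 0.03 and -0.12, and the glucuronosyltransferase gene B3gat3, which completes the linkage, had one of 0.09.

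Of the 5 genes of heparan sulfate chain growth, 1 rose, beside 8.67% of all genes with a symbol, and 4 did not pass. The median log2 fold change of the 5 was 0.06. Ext1 and Ext2 encode the 2 subunits of the heparan sulfate polymerase. Ext1 read 11.79, 11.85 and 11.96 in differentiated cells and 11.92, 12.12 and 12.06 in undifferentiated cells, and the groups overlapped (log2 fold change -0.16, 95% confidence interval -0.39 to 0.06). Ext2 read 12.25, 12.27 and 12.28 in differentiated cells, against 11.96, 12.05 and 12.20 in undifferentiated cells. Without overlap, its log2 fold change was 0.20 (-0.02 to 0.42) and it did not pass (adjusted p = 0.203). Extl1 encodes an exostosin-like glycosyltransferase. It read 8.73, 8.81 and 8.93 in differentiated cells, against 8.46, 8.46 and 8.54 in undifferentiated cells. It rose 1.26-fold (log2 fold change 0.34 ± 0.09 SE, adjusted p = 0.0421), and the adjusted p reached 0.142 when arrays were left out in turn. Extl3, which encodes the enzyme that commits a chain to heparan sulfate, stood at -0.06 on the log2 fold change scale (-0.26 to 0.14), and Extl2 stood at 0.06 (-0.15 to 0.27).

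Among the enzymes that modify heparan sulfate, Hs6st2 fell, and Hs3st1 and Ndst1 rose. Calls were made for 2 as higher and 1 as lower out of 10 measured, beside 8.67% and 8.16% of all genes with a symbol. The median log2 fold change of the 10 was -0.10. Hs6st2 encodes a 6-O-sulfotransferase. It read 9.47, 9.65 and 9.77 in differentiated cells, against 10.56, 10.50 and 10.54 in undifferentiated cells. All differentiated values were below the undifferentiated ones, which lay close together, and the log2 fold change was -0.91 ± 0.10 SE (adjusted p = 0.000689). The other 6-O-sulfotransferase genes did not pass. Hs6st1 read 13.80, 13.71 and 13.35 in differentiated cells and 13.70, 13.84 and 13.73 in undifferentiated cells, with overlap (log2 fold change -0.14, 95% confidence interval -0.43 to 0.15). Hs6st3 had a log2 fold change of -0.08 (-0.29 to 0.13).

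Hs3st1 encodes the 3-O-sulfotransferase that makes the antithrombin-binding sequence of heparan sulfate. It read 9.46, 9.20 and 9.16 in differentiated cells, against 8.57, 8.35 and 8.72 in undifferentiated cells. The groups did not overlap, and Hs3st1 was 1.66-fold higher (log2 fold change 0.73 ± 0.13 SE, adjusted p = 0.00607). Ndst1 encodes the N-deacetylase and N-sulfotransferase that opens the modification of the chain in most tissues. It read 12.91, 12.99 and 12.81 in differentiated cells, against 12.48, 12.57 and 12.60 in undifferentiated cells. Ndst1 rose 1.27-fold (log2 fold change 0.35 ± 0.09 SE, adjusted p = 0.0358), and its adjusted p reached 0.171 when arrays were left out in turn. Its relatives Ndst2, Ndst3 and Ndst4 had log2 fold changes of -0.12, -0.19 and -0.23 and did not pass. Ndst4 passed as lower without undifferentiated replicate 3 (log2 fold change -0.46, adjusted p = 0.0156), the array on which it read 9.02, against 9.72 and 9.76 on the others of that group. Glce, which encodes the epimerase that turns glucuronic into iduronic acid, varied within both groups, with 9.35, 9.37 and 9.98 in differentiated and 9.22, 8.72 and 9.75 in undifferentiated cells. Replicate 3 was the highest array of each group, and the log2 fold change was 0.34 with an interval of -0.25 to 0.93. Hs2st1, the 2-O-sulfotransferase gene, had a log2 fold change of 0.01 (-0.24 to 0.25).

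Sulf1 and Sulf2 encode the extracellular sulfatases that take 6-O-sulfate off heparan sulfate outside the cell, and only Sulf1 passed. Sulf1 read 9.02, 9.35 and 9.05 in differentiated cells, against 8.54, 8.45 and 8.64 in undifferentiated cells. The groups did not overlap, and Sulf1 was 1.51-fold higher (log2 fold change 0.60 ± 0.12 SE, adjusted p = 0.00965). Its call held narrowly when arrays were left out in turn, with an adjusted p of up to 0.0496. Sulf2 read 14.28, 14.22 and 14.30 in differentiated cells and 14.54, 14.66 and 14.48 in undifferentiated cells. These groups did not overlap either, with the differentiated values lower, and Sulf2 did not pass (log2 fold change -0.29, 95% confidence interval -0.50 to -0.09, adjusted p = 0.0604). It passed as lower without undifferentiated replicate 3 (adjusted p = 0.0334).

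Enzymes that sulfate or epimerize chondroitin, dermatan and keratan sulfate held both the lowest and the highest log2 fold change of the 48 genes. Calls were made for 3 as higher and 1 as lower out of 10 measured, beside 8.67% and 8.16% of all genes with a symbol. The median log2 fold change of the 10 was 0.14. Chst1, whose product sulfates galactose in keratan sulfate, read 9.20, 9.22 and 9.37 in differentiated cells, against 10.71, 10.65 and 10.92 in undifferentiated cells. The gap between the groups was far wider than the spread within either. In the authors' deposited linear units the values were 611, 602 and 654 in differentiated cells and 1629, 1574 and 2083 in undifferentiated cells. The log2 fold change of Chst1 was -1.49 ± 0.11 SE, and the adjusted p of 5.29e-05 was the smallest among the 48 genes. Chst2, which encodes a related 6-O-sulfotransferase that acts on N-acetylglucosamine, did not pass, at 0.09 on the log2 scale (interval -0.16 to 0.33).

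Chst3 encodes the main chondroitin 6-O-sulfotransferase. It read 9.22, 9.26 and 9.35 in differentiated cells, against 8.40, 8.50 and 8.21 in undifferentiated cells. Every differentiated array was higher than every undifferentiated one, and the log2 fold change was 0.91 ± 0.10 SE (adjusted p = 0.00073). Chst15 encodes the enzyme that adds 6-O-sulfate to residues that already carry 4-O-sulfate. It read 13.32, 13.26 and 13.22 in differentiated cells, against 12.61, 12.65 and 12.53 in undifferentiated cells. The arrays of each group lay close together, and Chst15 had a log2 fold change of 0.67 ± 0.09 SE (adjusted p = 0.00147). Ust encodes the uronyl 2-O-sulfotransferase of chondroitin and dermatan sulfate. It read 11.45, 11.48 and 11.84 in differentiated cells, against 10.95, 11.10 and 11.30 in undifferentiated cells. Ust passed narrowly (log2 fold change 0.47 ± 0.14 SE, adjusted p = 0.0487), and its call was lost without any 1 of 5 arrays, with an adjusted p of up to 0.153.

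The 4-O-sulfotransferase genes of chondroitin and dermatan sulfate did not pass. Chst12 read 13.07, 12.93 and 12.97 in differentiated cells and 13.23, 13.26 and 13.24 in undifferentiated cells. The groups did not overlap, and the log2 fold change was -0.25 (95% confidence interval -0.45 to -0.05, adjusted p = 0.0878). Chst11, the chondroitin 4-O-sulfotransferase gene of growing cartilage, and the dermatan-specific Chst14 each had a log2 fold change of -0.11. For Chst11 undifferentiated replicate 3 read 10.42, against 9.83 and 9.71 on the others of that group. Dse, which encodes the epimerase that makes dermatan out of chondroitin sulfate, read 14.18, 14.19 and 14.30 in differentiated cells and 13.86, 14.01 and 13.99 in undifferentiated cells. It was higher without overlap and did not pass (log2 fold change 0.27, 0.06 to 0.48, adjusted p = 0.0802). Chst7, a second chondroitin 6-O-sulfotransferase gene, had a log2 fold change of 0.20 (-0.04 to 0.45). Chpf, the chondroitin polymerizing factor gene and the measured gene of chondroitin chain growth, read 11.60, 11.60 and 11.43 in differentiated cells and 11.38, 11.60 and 11.68 in undifferentiated cells. The ranges overlapped, with a log2 fold change of -0.01 (-0.26 to 0.24).

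Among the cell-surface core proteins that carry these chains, none of 4 syndecans and 1 of 6 glypicans passed. The share over all genes with a symbol was 16.8%. The median log2 fold change was -0.01 for syndecans and -0.03 for glypicans. Sdc2, a syndecan gene of mesenchymal cells, read 14.37, 14.54 and 14.78 in differentiated cells and 14.35, 14.09 and 14.22 in undifferentiated cells. The lowest differentiated value was just above the highest undifferentiated one, and Sdc2 did not pass (log2 fold change 0.34, 95% confidence interval 0.05 to 0.63, adjusted p = 0.106). The intervals for Sdc3, at -0.25 to 0.20, and for Sdc4, at -0.19 to 0.22, were the narrower ones of the family. Sdc1 ranged more widely within the differentiated group, at 9.40, 9.68 and 10.05, against 9.83, 9.82 and 10.08 in undifferentiated cells, with a log2 fold change of -0.20 (-0.57 to 0.17). With limma 0 of the 4 syndecans passed, and 1 (Sdc2) did at an unadjusted p under 0.05.

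Gpc6 was the glypican gene that passed. It read 10.44, 10.25 and 10.53 in differentiated cells, against 11.12, 10.63 and 11.24 in undifferentiated cells. The groups came closest at undifferentiated replicate 2, and the fall was 1.51-fold (log2 fold change -0.59 ± 0.16 SE, adjusted p = 0.0381). Leaving out any differentiated array, or undifferentiated replicate 1, cost Gpc6 its call, with an adjusted p of up to 0.155. Gpc4, another glypican gene, read 13.43, 13.38 and 13.32 in differentiated cells and 13.70, 13.81 and 13.56 in undifferentiated cells. It did not overlap between groups and did not pass (log2 fold change -0.31, 95% confidence interval -0.54 to -0.09, adjusted p = 0.065), though it did without undifferentiated replicate 3 (adjusted p = 0.0219). The log2 fold changes of Gpc1, Gpc2 and Gpc3 were -0.09, 0.23 and 0.03. Gpc5 lay near the random-sequence probes, above them on 2 of 3 differentiated and 1 of 3 undifferentiated arrays, so its log2 fold change of 0.13 (-0.12 to 0.39) says little.

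**Figure D3:**
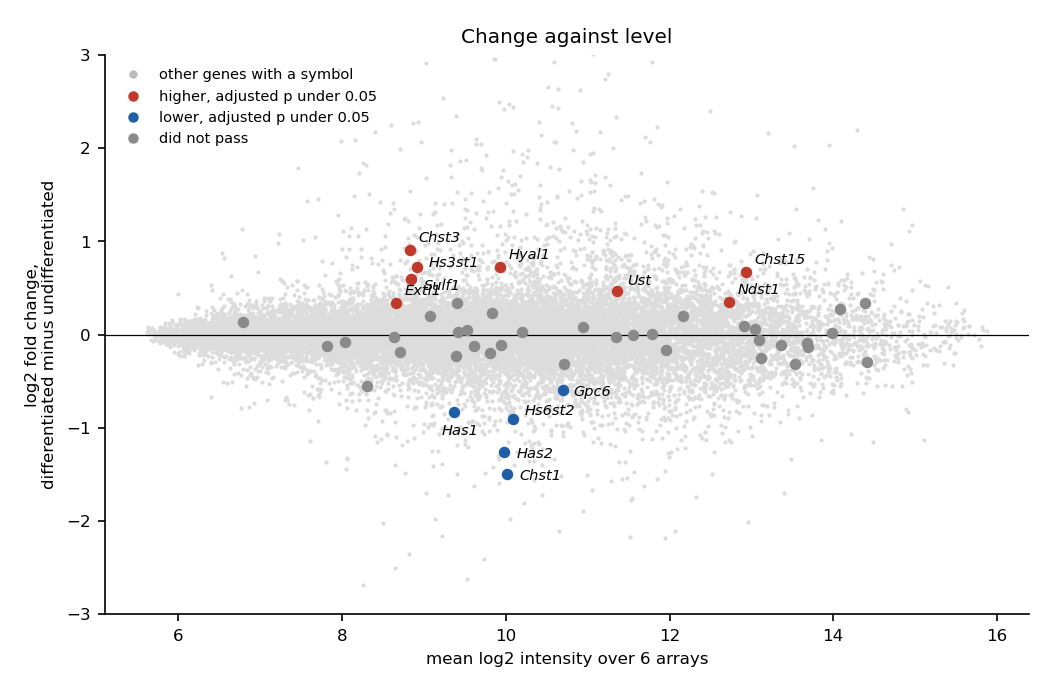
Log2 fold change, differentiated minus undifferentiated, against mean log2 intensity over 6 arrays, for the 48 genes (coloured by call) and the other genes with a symbol (grey); 28 of these lie outside the plotted range of 3 log2 units each way. The 13 called genes lie above the low end of the signal range, and Chst1 has the largest fall among them.

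Calls were not spread evenly over probe signal, which depends on the probe as well as on the mRNA and so does not rank genes by abundance. Genes with a symbol were split by mean signal into 4 classes of equal size. In the lowest class 0 of 4 genes were called with limma (Xylt2 alone had an unadjusted p under 0.05), against 5.06% of all genes there. In the next class up 5 of 13 were called and in the one above it 5 of 11, against 11.3% and 21.5% of all genes. In the highest class 3 of 20 were called (Ndst1, Chst15 and Ust), against 29.5% of all. The 20 genes in the highest class had a median size of the log2 fold change of 0.15, against 0.22 for all genes there.

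Genes that supply, extend, bind or break down the same chains were described from further lists, 64 measured genes of 76. Higher calls numbered 17 (26.6%) and lower calls 9 (14.1%), beside 8.67% and 8.16% of all genes with a symbol. The median log2 fold change of the 64 was 0.05. The breakdown genes, most of them lysosomal, were the list with most calls. The lists were chosen with earlier results of these data known, so this ranking is a description and not a test. Of 14 measured breakdown genes 9 rose and 1 fell, 64.3% and 7.14%. Most that rose lay in the highest signal class, where 29.5% of all genes with a symbol were called in either direction. The median log2 fold change of the breakdown genes was 0.42, against 0.01 over all genes with a symbol. Idua, the iduronidase of heparan and dermatan sulfate, read 12.15, 12.39 and 12.25 in differentiated cells, against 11.24, 11.25 and 11.61 in undifferentiated cells (log2 fold change 0.90 ± 0.13 SE, adjusted p = 0.00202). The groups of Idua did not overlap. Arsb, Gusb, Hexa, Sgsh and Naglu, all lysosomal, and the membrane protein gene Cemip2 rose by log2 fold changes of 0.40 to 0.55. The calls of Sgsh, Naglu and Cemip2 were lost with the deposited values, with median centring and without any 1 of 5 arrays, undifferentiated replicate 3 being the exception, and that of Gusb without differentiated replicate 2. The 9 higher calls numbered 5 with median centring and 4 without differentiated replicate 2. Cemip, which encodes a hyaluronan-binding protein needed for hyaluronan breakdown by fibroblasts, went the other way. It read 10.53, 10.13 and 10.08 in differentiated cells, against 11.68, 11.77 and 11.79 in undifferentiated cells, a fall of 2.83-fold (log2 fold change -1.50 ± 0.13 SE, adjusted p = 0.00016) that held in every setting run.

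**Figure D4:**
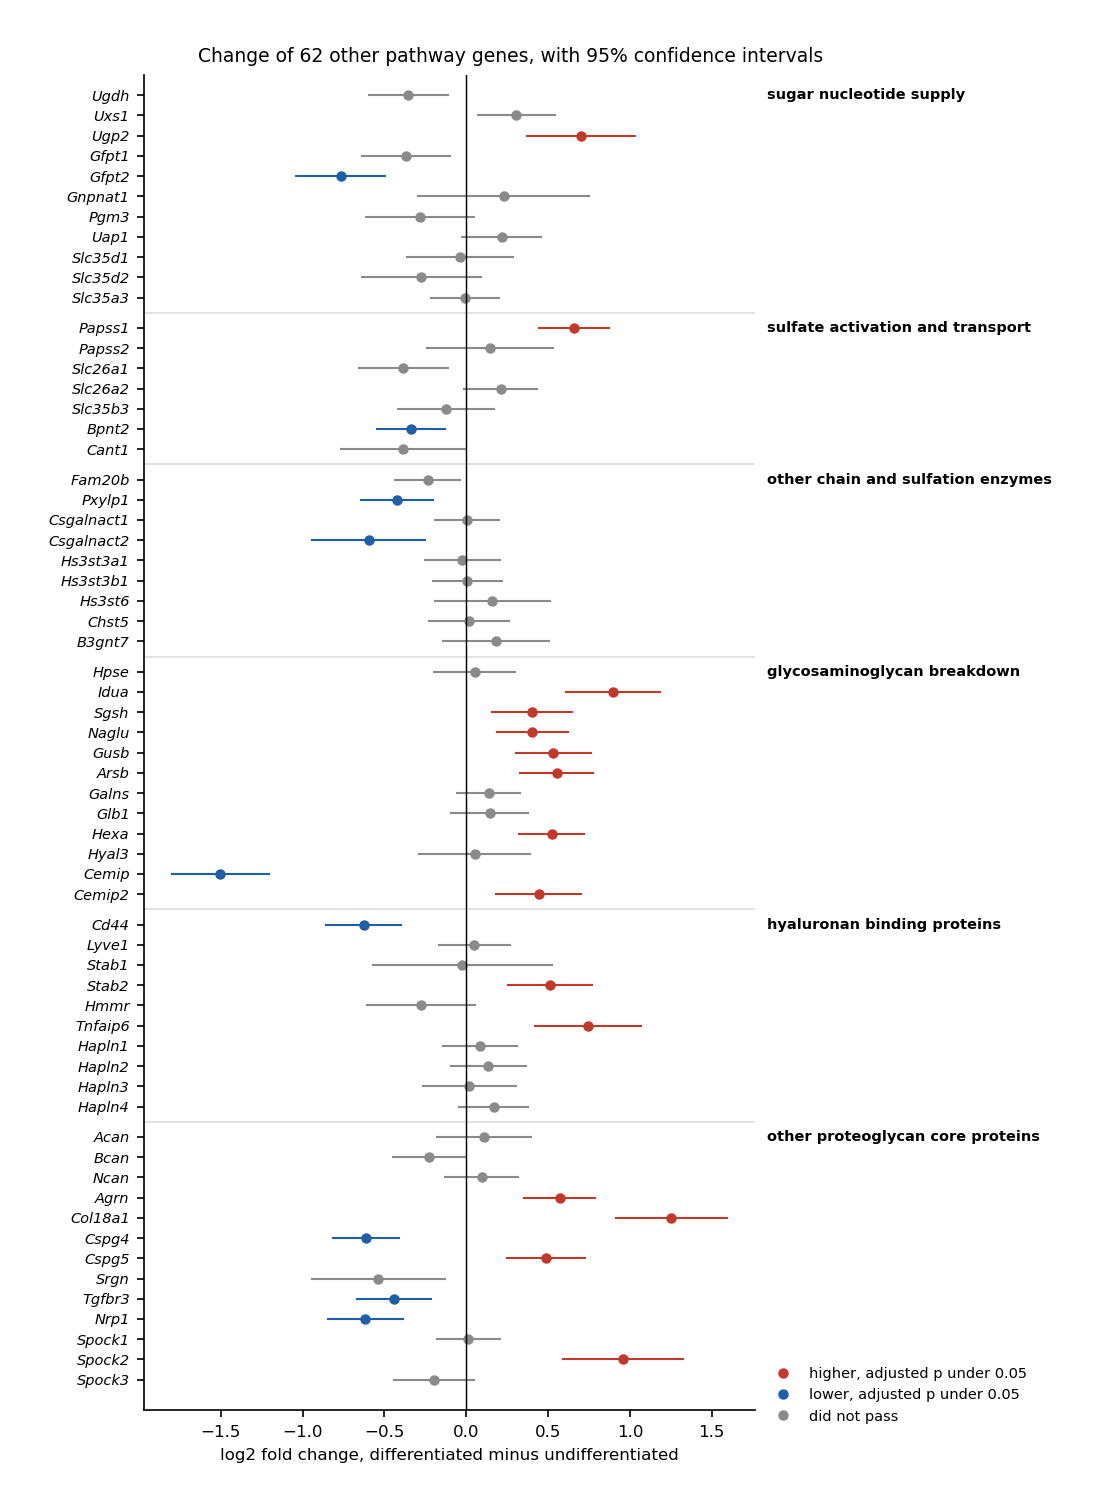
Log2 fold change, differentiated minus undifferentiated, of 62 other genes of glycosaminoglycan supply, extension, breakdown and binding (rows, grouped by list), with 95% confidence intervals from limma (n = 3 arrays per group). Of the 12 breakdown genes plotted 7 were called higher, and Cemip is the 1 called lower.

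Genes of sugar and sulfate supply were called in both directions. Of 7 measured sulfate genes and 11 sugar nucleotide genes, 2 each were called, beside 16.8% of all genes with a symbol. Papss1, which encodes an enzyme that makes the sulfate donor of all sulfotransferases, read 13.49, 13.46 and 13.47 in differentiated cells, against 12.70, 12.92 and 12.82 in undifferentiated cells. It was 1.58-fold higher (log2 fold change 0.66 ± 0.09 SE, adjusted p = 0.00214). Bpnt2, the Golgi phosphatase gene that clears the by-product of sulfation, was 1.26-fold lower (adjusted p = 0.0355), and the other 5 of 7 measured sulfate genes did not pass. Leaving out any differentiated array, or undifferentiated replicate 1, cost Bpnt2 its call, as did the deposited values and median centring. The 11 genes of sugar nucleotide supply held 1 higher and 1 lower call. Ugp2, which makes UDP-glucose, read 11.01, 11.24 and 11.38 in differentiated cells, against 10.45, 10.32 and 10.76 in undifferentiated cells (log2 fold change 0.70 ± 0.14 SE, adjusted p = 0.012). Gfpt2, an enzyme gene of the hexosamine pathway, read 10.24, 10.46 and 10.62 in differentiated cells, against 11.11, 11.21 and 11.31 in undifferentiated cells (-0.77 ± 0.12 SE, adjusted p = 0.00332). The call of Ugp2 was lost without differentiated replicate 2 or undifferentiated replicate 1. Of 9 other measured genes of chain synthesis and sulfation, 2 fell, beside 8.16% of all genes with a symbol, and 7 did not pass. Csgalnact2, which starts chondroitin chains, was 1.51-fold lower (adjusted p = 0.0299), and Pxylp1, the phosphatase gene of the linkage xylose, was 1.34-fold lower (adjusted p = 0.0192). Both calls were lost without differentiated replicate 1 or 2 or undifferentiated replicate 2, and that of Csgalnact2 also without undifferentiated replicate 1.

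The 10 hyaluronan binding proteins held 2 higher calls and 1 lower, beside 8.67% and 8.16% of all genes with a symbol. Lyve1, Hapln1 and Hapln4 lay at or below the random-sequence probes on all arrays. Tnfaip6, whose product crosslinks hyaluronan, read 10.77, 10.68 and 11.01 in differentiated cells, against 9.96, 9.91 and 10.35 in undifferentiated cells. It was 1.68-fold higher (log2 fold change 0.75 ± 0.14 SE, adjusted p = 0.00871). Cd44, the main hyaluronan receptor gene, read 13.37, 13.35 and 13.49 in differentiated cells, against 14.17, 13.93 and 14.01 in undifferentiated cells, with a log2 fold change of -0.63. The scavenger receptor gene Stab2 was 1.43-fold higher (adjusted p = 0.0162), a call lost without differentiated replicate 1 or 2. The 13 other proteoglycan core proteins held 4 higher and 3 lower calls, beside the same shares of all genes with a symbol. Ncan and Spock1 lay at or below the random-sequence probes on all arrays. Col18a1, a basement membrane collagen that carries heparan sulfate, read 9.42, 9.40 and 9.36 in differentiated cells, against 7.83, 8.13 and 8.46 in undifferentiated cells. It had the largest rise of this list, 2.38-fold (log2 fold change 1.25 ± 0.15 SE, adjusted p = 0.000895). Spock2, a secreted testican gene, read 9.67, 9.32 and 9.48 in differentiated cells, against 8.50, 8.25 and 8.86 in undifferentiated cells (0.96 ± 0.16 SE, adjusted p = 0.0051). Nrp1, a receptor gene for semaphorins and VEGF, and Cspg4, the gene of the chondroitin sulfate proteoglycan NG2, were each 1.53-fold lower (adjusted p = 0.00444 and 0.00238).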

How the data were processed

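RNA of 6 MC3T3-E1 samples, 3 differentiated and 3 undifferentiated, was read on NimbleGen arrays with Cy3 as the only dye. The authors deposited an intensity for each probe set, linear in scale and summarised by RMA per the submitters' processing notes. Not given in the sources used here are the RMA version and the build behind the array design. The largest median gap between rank-matched arrays was 0.135 log2, above the limit of 0.02, so log2 values of the 6 arrays were quantile normalized together. Probe sets were named by accession or symbol through a RefSeq gene table (GRCm38.p6, names only), 17979 of 42586. The probe set with the highest mean stood for a gene. No filter on low values was used.

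The test was that of limma 3.58.1, run under R 4.3.3 with lmFit, then eBayes (two-sided, no covariate), with Benjamini-Hochberg adjustment over 41938 entries and calls at an adjusted p under 0.05. The number of arrays limits precision. The series' design text calls the samples a biological triplicate and names no separate cultures, so p-values measure the spread between these samples. On simulated data with 200 changed genes among 41938, 79% of changes of 1 on the log2 scale were recovered, and 9 of 184 calls were false. The simulated noise was independent between genes and arrays, and the real data gave 7135 calls. Neither the recovery nor the false share therefore carries over to the real data.

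The genes, the lists and the tests were chosen with earlier results of these data known. Values on every array are given for each gene that passed, for genes with a log2 fold change of at least 0.5 in size, and otherwise for the gene of highest signal in a role group; genes whose groups did not overlap or whose arrays disagreed were added after their values were seen. Of each further list, up to 4 called genes with the largest change are named, and others only by name and range; some genes of these lists enter the counts but are not reported here. Alternatives were the deposited values, median centring, cyclic loess, a filter at the 25th percentile, the mean of probe sets, an offset of 50, array weights, robust eBayes with a trend, replicate blocks, an adjusted p under 0.01, the authors' series value table and leaving out each array.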

Additional observations from a re-analysis of the deposited data

How the results depend on the processing

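None of the 48 genes changed direction while called in any of the alternatives. With array weights 15846 of the 41938 entries were called and 11 of the 48 genes were lower, against 7135 and 5. At an adjusted p under 0.01, 3184 entries, 5 of the 48 genes higher and 15 of the other pathway genes were called. Median centring gave 5 higher, and eBayes with trend and robust settings gave 8 lower. Leaving out each array in turn, the calls ranged from 3134 to 9470 over all entries, from 5 to 8 for genes higher, from 4 to 8 for genes lower and from 14 to 29 for the other pathway genes, against 26. The entries called numbered 4235 without differentiated replicate 1 and 3134 without differentiated replicate 2. Replicate numbers in the titles and in the file names differ, and whether either pairs the samples is not known. Same-numbered deviations correlated at 0.334, -0.145 and 0.459 by title and at 0.428, -0.01 and 0.459 by file name. Differently numbered ones ran from -0.524 to 0.428 by title and from -0.524 to 0.334 by file name. As a replicate block the numbers gave 8984 and 10493 calls over all entries, with 8 higher and 6 lower of the 48 genes by title and 10 and 8 by file name. A batch block was not run, since each batch held 1 group.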

Other observations

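Changes of the log2 ratio between paralogs were computed for 49 pairs within 12 families, formed after the values were seen and sharing genes, and none passed. The ratio of Chst3 to Chst1 was 2.40 log2 units higher in differentiated than in undifferentiated cells, that of Has3 to Has2 1.24, that of Hyal1 to Hyal2 1.04, that of Sulf1 to Sulf2 0.89 and that of Hs6st1 to Hs6st2 0.77. An exact two-sided permutation test of 3 against 3 arrays cannot go below p = 0.1, which each of these pairs reached (adjusted p = 0.181 over the 49 pairs). A change of a ratio shows unequal change and not which of the genes moved.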
